A study of Mus musculus with 20 samples.

Results

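10 mouse genes of threonine breakdown, glycine handling and one-carbon metabolism were followed in RNA sequencing of 20 libraries in which the transcription factor Klf5 had been raised or lowered. The genes were chosen by name, as enzymes of linked steps, and were Tdh, Gcat, Gldc, Shmt1, Shmt2, Mthfd1, Mthfd2, Mthfd1l, Phgdh and Psat1, out of 30265 genes in each deposited table. All 10 were found in the tables and all 10 passed the filter on low counts in both experiments. The stem cell experiment held 2 libraries of embryonic stem cells (ESCs) overexpressing Klf5 and 2 of ESCs overexpressing green fluorescent protein (GFP). These pluripotent cells came from C57BL/6J mice and grew with the cytokine LIF on irradiated embryonic fibroblast feeders. The embryo experiment used late blastocysts (E4.5), sequenced singly, from mice that the labels call C57BL/5J, cultured in KSOM with albumin. 6 embryos carried an siRNA (a short RNA that lowers its target transcript) against Klf5 and 10 a scramble siRNA, with 1 library per embryo. The vector, promoter and number of clones behind the overexpression, and the dose and time of the siRNA, are not stated by the labels. The labels do not call the ESC replicates separate cultures, so p-values there measure only how far these samples spread, and that spread may be technical.

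Mouse Tdh and Gcat act in mitochondria and turn threonine into glycine and acetyl-CoA, a route on which mouse ESCs are known to depend. The glycine cleavage system, whose decarboxylase is Gldc, and the serine hydroxymethyltransferases Shmt1 (cytosol) and Shmt2 (mitochondria) hand carbon units from glycine and serine to the folate carrier. Mthfd2 and Mthfd1l carry these units through to formate in mitochondria, Mthfd1 takes formate up into folates in the cytosol, and Phgdh and Psat1 make serine from a glycolytic intermediate. The units feed the making of purines and thymidylate and the methylation cycle.

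All 10 are protein-coding genes, with positions here on mm10. The threonine genes are Tdh (ENSMUSG00000021953, chr14:63492347-63509092, minus strand) and Gcat (ENSMUSG00000006378, chr15:79030874-79038353, plus strand), and Gldc (ENSMUSG00000024827) lies on chr19:30098447-30175429, minus strand. Shmt1 (ENSMUSG00000020534) lies on chr11:60788104-60811718 and Shmt2 (ENSMUSG00000025403) on chr10:127517123-127522444, both on the minus strand. Of the folate genes Mthfd2 (ENSMUSG00000005667) is on chr6:83305691-83325908, minus strand, Mthfd1l (ENSMUSG00000040675) on chr10:3973118-4167081, plus strand, and Mthfd1 (ENSMUSG00000021048) on chr12:76255298-76319803, plus strand. The serine genes are Phgdh (ENSMUSG00000053398, chr3:98313170-98339990) and Psat1 (ENSMUSG00000024640, chr19:15904678-15947337), both on the minus strand.

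The ESC libraries held 26775363 to 37482631 estimated counts and the embryo libraries 14701519 to 24939629. Klf5 itself was 942 and 882 CPM (counts scaled to 1000000 per library) in Klf5 ESCs, against 80.5 and 70.8 CPM in GFP ESCs. In embryos Klf5 was 80.8 to 543 CPM (median 156) after Klf5 siRNA, against 382 to 592 CPM (median 472) after scramble siRNA. The embryo labelled Klf5 siRNA 1, at 543 CPM, lay inside the scramble range, and the other 5 lay below it, so the library label and its Klf5 level disagree for that embryo. The fitted log2 fold change of Klf5 was 3.59 in ESCs (edgeR adjusted p = 0.000323) and -1.07 in embryos (edgeR adjusted p = 0.0273), and -1.56 in embryos without embryo 1. The embryo call ended under 9 of 26 alternatives, among them the length offset (-0.87, edgeR adjusted p = 0.0681) and leaving out Klf5 siRNA embryo 2, 3, 4 or 5 (edgeR adjusted p = 0.0619, 0.0509, 0.0583 and 0.0672). Mitochondrially encoded genes took 2.45% to 10.3% of counts in Klf5 siRNA embryos and 4.34% to 18.5% in scramble embryos, and the Klf5 siRNA libraries carry later library numbers than the scramble ones, so handling order and siRNA cannot be told apart.

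Markers of the labelled cells were present. Pou5f1, which marks pluripotent cells, was 2839 to 3082 CPM in Klf5 ESCs and 2541 to 2707 CPM in GFP ESCs, and Cdx2, which marks trophectoderm, was 0.364 to 18.1 CPM in Klf5 siRNA embryos and 14.8 to 132 CPM in scramble embryos. In embryos 7 of 9 tested trophectoderm markers fell, and their summed level was 209 to 2429 CPM (median 971) after Klf5 siRNA against 2194 to 8504 CPM (median 3249) after scramble siRNA. Primitive endoderm markers fell for 2 of 9 tested and inner cell mass markers for 1 of 10, beside 7.74% of all genes tested. The inner cell mass list summed to 6458 to 17314 CPM (median 10342) after Klf5 siRNA and 3916 to 11973 CPM (median 7935) after scramble siRNA. Of its 10 log2 fold changes 3 were above 0 and 7 below. Median Pou5f1 was 97.2 CPM after Klf5 siRNA and 37.1 CPM after scramble siRNA. Feeder fibroblast markers summed to 0.931 to 22.3 CPM in Klf5 siRNA embryos and to 0.0603 to 1.91 CPM in scramble embryos, with Dcn at 0 in 6 of 6 Klf5 siRNA and 6 of 10 scramble embryos. The only tested gene of that list in embryos, Thy1, rose with a log2 fold change of 4.25, at 0.432 to 21.9 CPM (median 3.80) in Klf5 siRNA embryos and 0 to 1.48 CPM (median 0.0870) in scramble embryos. In ESCs the inner cell mass list had a median log2 fold change of 0.46 with 0 of 10 called by edgeR, and summed to 6772 and 6181 CPM in Klf5 ESCs against 5486 and 5484 CPM in GFP ESCs. Of all genes tested in ESCs edgeR called 1.67% higher and 1.11% lower. There 4 of 10 primitive endoderm markers rose, with sums of 183 and 452 CPM in Klf5 ESCs against 71.6 and 68.3 CPM in GFP ESCs. The feeder list there had 1 riser of 9 and summed to 1131 and 1125 CPM in Klf5 ESCs against 623 and 787 CPM in GFP ESCs. Trophectoderm markers summed to 280 and 651 CPM in Klf5 ESCs against 1903 and 909 CPM in GFP ESCs, with 0 of 10 called. Highest of that list in GFP ESCs were Krt8 and Krt18, with means of 600 and 541 CPM, against 189 and 130 CPM in Klf5 ESCs. Mean Cdx2 was 1.21 CPM in Klf5 ESCs and 1.19 CPM in GFP ESCs, and mean Elf5 was 0.592 and 0.784 CPM. The part of these marker shifts in the results on metabolic genes was not tested, and in bulk RNA fewer cells of a type and less RNA per cell cannot be told apart.

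Raising Klf5 in ESCs went with more Tdh. Of the 10 genes Tdh alone rose, 1.95-fold, while Shmt2, Phgdh and Mthfd1 stood 1.36-fold, 1.29-fold and 1.21-fold higher in Klf5 ESCs and Gldc 1.25-fold lower without passing the test. Lowering Klf5 in embryos went with less Shmt1, which fell 4.18-fold and did so in 6 of 6 Klf5 siRNA embryos. The other 9 genes did not pass in embryos. Calls here are a quasi-likelihood test of edgeR with p adjusted over all genes tested by Benjamini and Hochberg, at 0.05.

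In ESCs 1 of 10 genes was called higher, against 1.67% of the 15968 genes tested, and 0 of 10 lower, against 1.11%. 5 of the 10 had an unadjusted edgeR p under 0.05, beside 23.2% of all genes tested. DESeq2 called 3 higher (Tdh, Shmt2 and Phgdh) and limma voom 0, and neither called any lower. Over all genes DESeq2 called 798 higher and limma voom 65, beside 266 with edgeR. In 4 of 10 genes both Klf5 libraries lay above both GFP libraries, against 28.9% of all genes tested, and in 1 of 10 both lay below, against 27.4%, so these shares say little about the 10 genes. Their median log2 fold change was 0.07, beside -0.002 for all genes tested.

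In embryos 0 of 10 genes were called higher, against 12.0% of the 12385 genes tested, and 1 of 10 lower, against 7.74%. 2 of the 10, Shmt1 and Mthfd2, had an unadjusted edgeR p under 0.05, both lower, beside 33.2% of all genes tested. DESeq2 called 2 genes lower, limma voom 1, and neither called any higher. Over all genes DESeq2 called 1518 lower and limma voom 1203, beside 958 with edgeR. All Klf5 siRNA embryos lay below all scramble embryos for 1 of 10 genes, Shmt1, against 1.91% of all genes tested, and above them for 0 of 10, against 2.91%. The median log2 fold change of the 10 was -0.86, beside -0.006 for all genes tested, whose quartiles were -0.640 and 0.729.

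**Figure D1:**
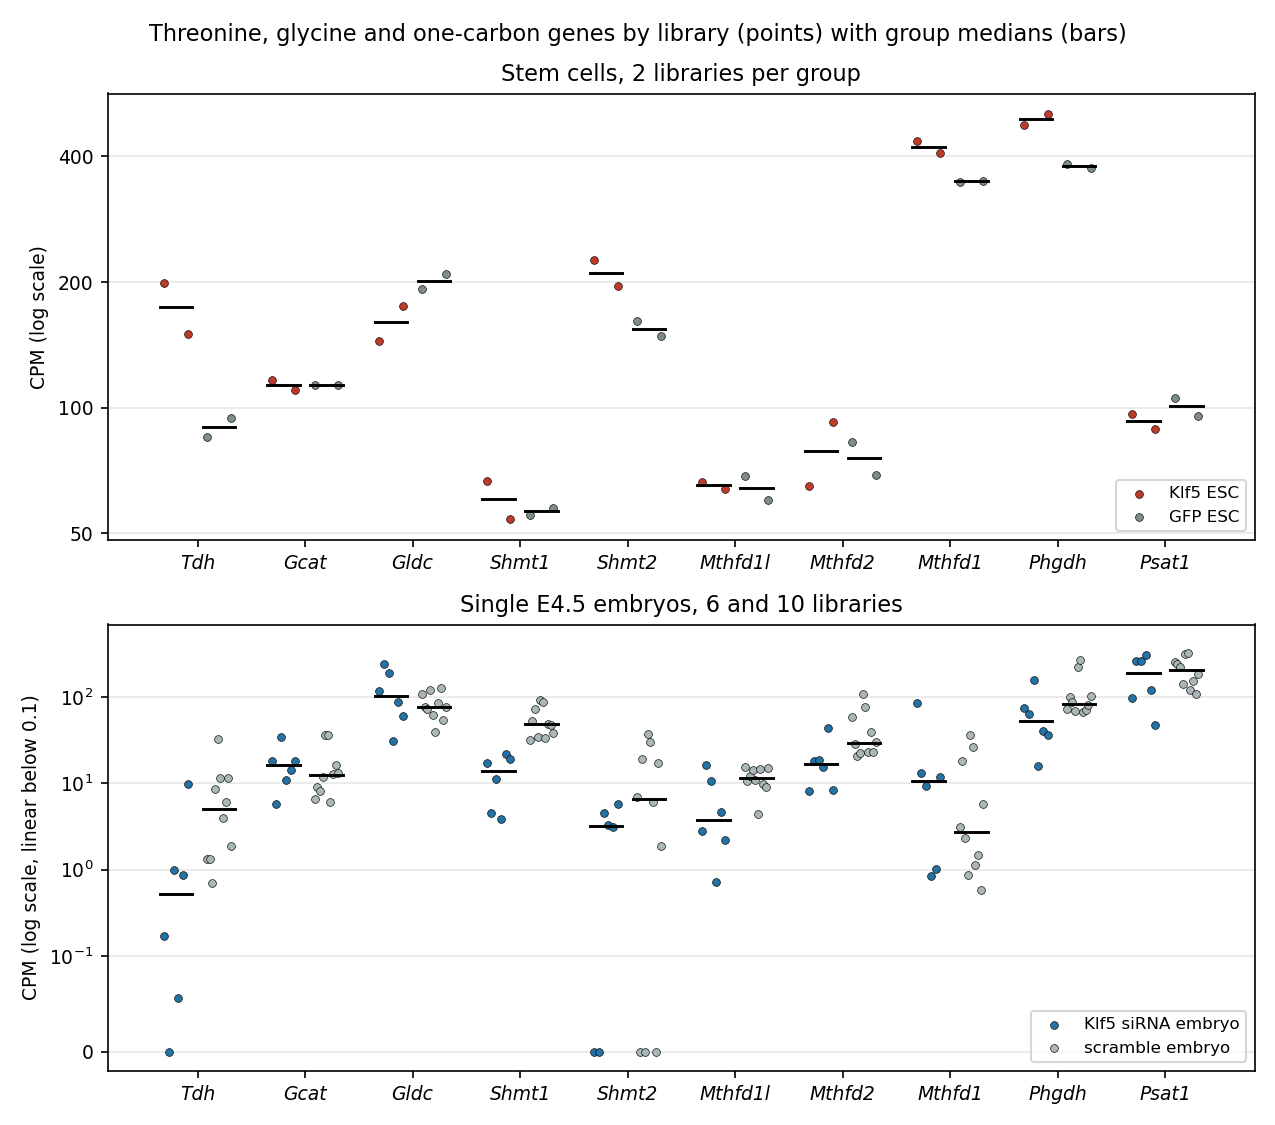
CPM of each gene (x axis) in every library (points, log y axis) with group medians (bars), for ESCs above and embryos below. The 2 Klf5 ESC points of Tdh sit above the 2 GFP ESC points, and the 6 Klf5 siRNA points of Shmt1 sit below all 10 scramble points.

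Tdh, the mitochondrial threonine dehydrogenase, was 199 and 150 CPM in Klf5 ESCs and 85.2 and 94.3 CPM in GFP ESCs. Both Klf5 libraries lay above both GFP libraries, and the libraries of Klf5 ESCs also differed from each other more than those of GFP ESCs. The log2 fold change was 0.96 ± 0.16 (SE, n = 2 each, edgeR adjusted p = 0.0347). The call ended with limma voom (adjusted p = 0.0571) and without either GFP library (edgeR adjusted p = 0.207 without GFP 1 and 0.0662 without GFP 2). An antisense gene, Gm17232, overlaps Tdh in the annotation, and no source used here says whether reads were counted by strand.

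In embryos Tdh was 0 to 9.99 CPM (median 0.523) after Klf5 siRNA and 0.697 to 32.8 CPM (median 5.03) after scramble siRNA. 5 of the 6 Klf5 siRNA embryos were at or below 0.99 CPM, embryo 6 stood apart at 9.99 CPM, and the groups overlapped. The embryo labelled Klf5 siRNA 2 was listed at 0, where 3 counts would be 0.218 CPM. The log2 fold change was -1.98 ± 1.05 (SE, n = 6 and 10, edgeR adjusted p = 0.195), -4.19 without Klf5 siRNA embryo 6 (edgeR adjusted p = 0.0131) and -1.36 without scramble embryo 5 (edgeR adjusted p = 0.365).

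Gcat, which splits the product of Tdh into glycine and acetyl-CoA, was 117 and 110.4 CPM in Klf5 ESCs and 113 and 113 CPM in GFP ESCs. The groups overlapped and the log2 fold change was 0.005 ± 0.10 (SE, edgeR adjusted p = 0.984), with a 95% interval between -0.24 and 0.25. In embryos Gcat was 5.82 to 34.7 CPM (median 16.2) after Klf5 siRNA and 6.07 to 37.0 CPM (median 12.4) after scramble siRNA. These ranges overlapped almost fully, with a log2 fold change of 0.11 ± 0.44 (edgeR adjusted p = 0.886).

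The log2 ratio of Tdh to Gcat per kilobase of transcript was 0.78 and 1.11 in Klf5 ESCs, against -0.07 and 0.07 in GFP ESCs, so these groups did not overlap. How many gene pairs separate ESC groups was not counted, here or for the ratios below, so separation alone says little. Of single genes tested 28.9% separated with Klf5 ESCs higher and 27.4% with them lower. In embryos the ratio was -7.00 to -0.55 (median -5.42) after Klf5 siRNA and -3.16 to 0.17 (median -1.04) after scramble siRNA. The embryo ranges overlapped, and both medians were below 0, so Tdh was the lower of the pair per length in most embryos of both groups. Over the 16 embryos the genes whose log2 CPM profile lay nearest to that of Tdh were Tnfrsf9, Riox1 and Mlycd, with root mean square differences of 1.30, 1.32 and 1.37 log2 units, beside a median of 2.70 over all genes tested.

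Gldc, the decarboxylase of the glycine cleavage system, was 145 and 175 CPM in Klf5 ESCs and 193 and 209 CPM in GFP ESCs. Both Klf5 libraries lay below both GFP libraries, but the log2 fold change of -0.33 ± 0.13 (SE) did not pass (edgeR adjusted p = 0.191). In embryos Gldc was 31.1 to 243 CPM (median 103) after Klf5 siRNA and 39.6 to 127 CPM (median 77.0) after scramble siRNA. The Klf5 siRNA embryos spread to both sides of the scramble range, and the log2 fold change was 0.56 ± 0.35 (edgeR adjusted p = 0.278).

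Shmt1, the cytosolic serine hydroxymethyltransferase, was the gene that fell in embryos. It was 3.86 to 22.2 CPM (median 14.1) after Klf5 siRNA and 32.1 to 93.1 CPM (median 48.5) after scramble siRNA. The highest Klf5 siRNA embryo lay below the lowest scramble embryo, the embryo labelled Klf5 siRNA 1 included, at 17.1 CPM. The log2 fold change was -2.06 ± 0.40 (SE, n = 6 and 10, 95% interval -2.90 to -1.22, edgeR adjusted p = 0.00155). Shmt1 was lowest in embryos 2 and 4, at 4.59 and 3.86 CPM, whose Klf5 levels were also the lowest, 111 and 80.8 CPM. Without embryos 2 and 4 the log2 fold change was -1.65 (edgeR adjusted p = 0.00502), and without embryo 1 it was -2.16 (edgeR adjusted p = 0.00266). The trophectoderm marker sum lay below the scramble range in Klf5 siRNA embryos 2, 3, 4 and 5. In embryos 1 and 6 it was 2321 and 2429 CPM, inside the scramble range of 2194 to 8504 CPM. The part of these markers in the fall of Shmt1 was not tested.

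In ESCs Shmt1 was 66.6 and 53.9 CPM with Klf5 and 55.4 and 57.5 CPM with GFP. The Klf5 libraries lay on either side of the GFP libraries, and the log2 fold change was 0.09 ± 0.14 (SE, edgeR adjusted p = 0.719, 95% interval -0.23 to 0.42). Shmt1 overlaps Smcr8 in the annotation.

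**Figure D2:**
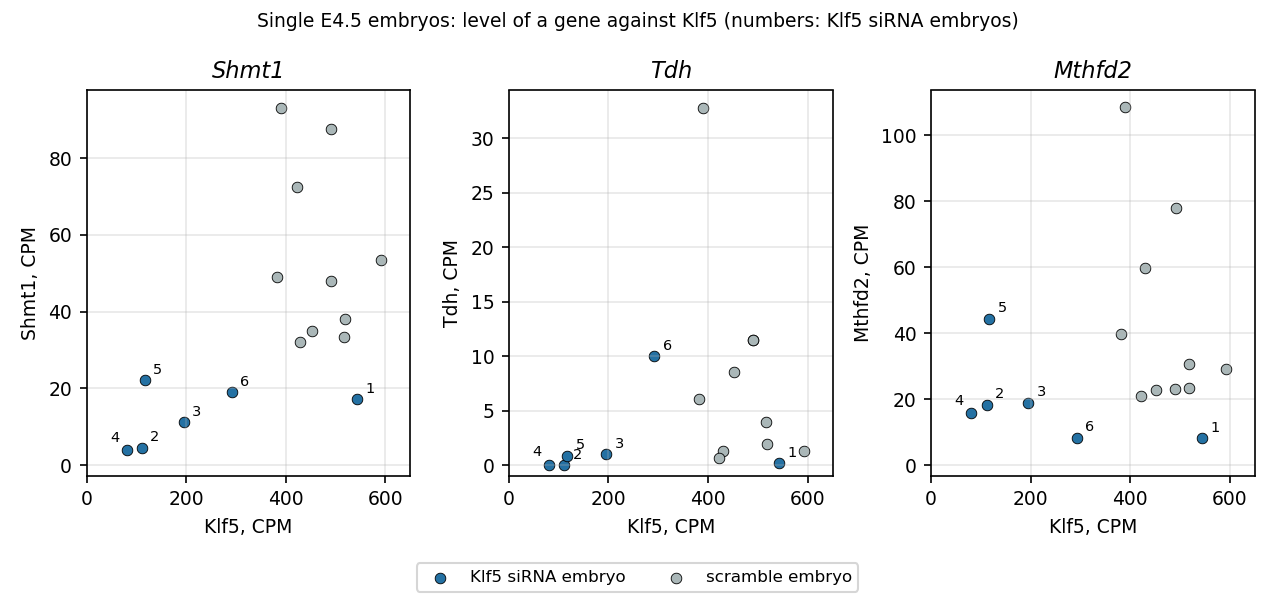
CPM of Shmt1, Tdh and Mthfd2 (y axes) against CPM of Klf5 (x axes) in single embryos, with Klf5 siRNA embryos numbered. Shmt1 stays at or below 22.2 CPM in all 6 Klf5 siRNA embryos, embryo 1 with 543 CPM of Klf5 included.

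Shmt2, the mitochondrial counterpart, was 226 and 195 CPM in Klf5 ESCs and 161 and 148 CPM in GFP ESCs. Both Klf5 libraries lay higher, but the log2 fold change of 0.45 ± 0.12 (SE) missed the threshold (edgeR adjusted p = 0.0892). DESeq2 gave an adjusted p of 0.0175. In embryos Shmt2 was 0 to 5.83 CPM (median 3.20) after Klf5 siRNA and 0 to 37.4 CPM (median 6.52) after scramble siRNA. The groups overlapped, and the log2 fold change was -2.08 ± 1.30 (SE, edgeR adjusted p = 0.276).

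Shmt2 was listed at 0 in 2 of 6 Klf5 siRNA embryos and in 3 of 10 scramble embryos, at depths where 3 counts would be 0.147 to 0.258 CPM. The other scramble embryos held 40.36 to 1240.0 estimated counts. The 3′ end of Shmt2 overlaps Ndufa4l2 in the annotation, and the cause of the zeros was not tested. The fall of Shmt1 had an SE of 0.40 and the similar-sized difference of Shmt2 one of 1.30, so the interval of Shmt2, -4.78 to 0.63, takes in both no difference and a larger fall than that of Shmt1.

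The log2 ratio of Shmt2 to Shmt1 per kilobase was 2.08 and 2.18 in Klf5 ESCs and 1.69 and 1.86 in GFP ESCs. The groups did not overlap, and Shmt2 was the more abundant of the pair in all 4 ESC libraries. In embryos the order was turned, with a ratio of -8.32 to 0.10 (median -1.94) after Klf5 siRNA and of -10.65 to -1.0 (median -2.0) after scramble siRNA. All 10 scramble embryos had more Shmt1 than Shmt2 per kilobase. The lowest ratios are those of embryos with Shmt2 at 0, where 0.5 counts were added.

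The promoter windows of this pair are shown because the paralogs differed in their calls and in their letters. Both were known when the pair was picked, so the contrast in motifs is part of the choice. The embryo log2 fold changes were alike, -2.06 for Shmt1 and -2.08 for Shmt2. Any part of the motif in the calls was not tested. Windows run 250 bases before to 50 after the start, from RefSeq on GRCm38.p6, both on the minus strand and printed 5′ to 3′ along the gene. Capitals mark matches to GGGNGNGG, a Krüppel-like motif, on either strand.
Shmt1 chr11:60811216-60811515: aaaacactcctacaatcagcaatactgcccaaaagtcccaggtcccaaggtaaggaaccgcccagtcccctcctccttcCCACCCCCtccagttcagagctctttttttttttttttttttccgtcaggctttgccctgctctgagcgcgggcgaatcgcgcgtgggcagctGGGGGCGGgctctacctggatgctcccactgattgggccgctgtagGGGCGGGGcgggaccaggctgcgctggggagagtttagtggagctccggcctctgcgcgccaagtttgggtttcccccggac
Shmt2 chr10:127522395-127522694: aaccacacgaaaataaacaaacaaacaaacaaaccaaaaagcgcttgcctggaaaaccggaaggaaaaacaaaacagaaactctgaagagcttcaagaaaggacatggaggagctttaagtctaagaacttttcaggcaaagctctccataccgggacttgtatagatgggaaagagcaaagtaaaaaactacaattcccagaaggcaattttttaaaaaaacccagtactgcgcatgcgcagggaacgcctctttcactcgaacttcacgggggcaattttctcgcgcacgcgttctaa
The Shmt1 window held 3 matches, beginning at positions -171, -78 and -32 from the start, and the Shmt2 window 0. At least 3 matches stood in 19.1% of all 32851 windows searched, and at least 1 in 49.5%. Of the 10 genes 9 had a window (10 windows in all, 2 of them for Psat1), and 7 of these 9 held the motif, with 2 overlapping matches in Gldc. TGATGNAA, a composite motif of CHOP and ATF4, stood in 0 of 9, against 3.97% of all windows, and CACGTG, an E-box, in 1 of 9 (Gcat), against 7.15%. GC content was 60.7% in the Shmt1 window and 42.7% in the Shmt2 window, beside a median of 52.7% over all windows. A match is a string of letters and not a bound site.

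Mthfd2, the mitochondrial dehydrogenase and cyclohydrolase, was 64.8 and 92.3 CPM in Klf5 ESCs and 82.8 and 68.8 CPM in GFP ESCs. The groups overlapped, with a log2 fold change of 0.05 ± 0.19 (SE, edgeR adjusted p = 0.891). In embryos it was 8.25 to 44.3 CPM (median 17.0) after Klf5 siRNA and 21.1 to 108 CPM (median 29.8) after scramble siRNA. 5 of 6 Klf5 siRNA embryos lay below every scramble embryo, and embryo 5, at 44.3 CPM, lay within them. The log2 fold change was -1.20 ± 0.44 (SE, edgeR adjusted p = 0.0629), and -1.66 without embryo 5 (edgeR adjusted p = 0.0154). DESeq2 called it with all embryos (adjusted p = 0.0321).

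Mthfd1l, the mitochondrial formate-producing ligase, was 66.2 and 63.9 CPM in Klf5 ESCs and 68.4 and 60.0 CPM in GFP ESCs. The GFP libraries lay outside the Klf5 ones on both sides, and the log2 fold change was 0.02 ± 0.12 (SE, edgeR adjusted p = 0.941). In embryos Mthfd1l was 0.728 to 16.6 CPM (median 3.77) after Klf5 siRNA and 4.38 to 15.7 CPM (median 11.5) after scramble siRNA. Klf5 siRNA embryo 2, at 16.6 CPM, lay above every scramble embryo and 3 of the 6 lay below them all, and the log2 fold change was -0.89 ± 0.50 (SE, edgeR adjusted p = 0.22).

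Mthfd1, the cytosolic trifunctional enzyme, was 436 and 408 CPM in Klf5 ESCs and 348 and 349.5 CPM in GFP ESCs. Both Klf5 libraries lay higher, with a log2 fold change of 0.28 ± 0.11 that did not pass (edgeR adjusted p = 0.196). In embryos Mthfd1 was 0.839 to 84.8 CPM (median 10.7) after Klf5 siRNA and 0.584 to 36.1 CPM (median 2.72) after scramble siRNA. Both groups spread over more than an order of magnitude, and the log2 fold change of 1.07 ± 0.94 (edgeR adjusted p = 0.46) was -0.43 without the embryo labelled Klf5 siRNA 1. In 5 of 16 embryos (Klf5 siRNA 4 and 5, scramble 4, 7 and 9) the authors' estimated count of Mthfd1 was between 14.73 and 15.01, and in scramble embryo 8 it was 30.03. Antisense genes, among them Gm34868, overlap Mthfd1 in the annotation, and the cause of the repeated values was not tested.

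The log2 ratio of Mthfd1l to Mthfd1 per kilobase was -2.86 and -2.90 in Klf5 ESCs, against -2.73 and -2.53 in GFP ESCs. The groups did not overlap, and Mthfd1 was the more abundant of the pair in all 4 libraries. In embryos the ratio was -5.07 to 2.00 (median -0.20) after Klf5 siRNA and -2.77 to 3.82 (median 2.16) after scramble siRNA. Those ranges overlapped and took in both orders. The order in embryos depends on the length used, since with median transcript length the ratio was -7.30 to -0.23 (median -2.43) after Klf5 siRNA and -5.01 to 1.59 (median -0.08) after scramble siRNA.

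Phgdh, which starts serine synthesis, was 476 and 506 CPM in Klf5 ESCs and 384 and 375 CPM in GFP ESCs. Both Klf5 libraries lay higher, and the log2 fold change of 0.37 ± 0.11 (SE) did not pass (edgeR adjusted p = 0.113), while DESeq2 gave 0.0181. In embryos Phgdh was 16.0 to 158 CPM (median 52.5) after Klf5 siRNA and 66.7 to 274 CPM (median 84.6) after scramble siRNA. Embryo 3, at 158 CPM, was the highest Klf5 siRNA embryo, and the groups overlapped. The log2 fold change was -0.83 ± 0.43 (SE, edgeR adjusted p = 0.188), and -1.35 without embryo 3 (edgeR adjusted p = 0.0306). A pseudogene of the same family, Phgdh-ps1, could share reads with Phgdh.

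Psat1, the transaminase of the next step, was 96.4 and 88.8 CPM in Klf5 ESCs and 106 and 95.6 CPM in GFP ESCs. The groups overlapped, with a log2 fold change of -0.12 ± 0.11 (SE, edgeR adjusted p = 0.565). In embryos Psat1 was 47.9 to 312 CPM (median 193) after Klf5 siRNA and 109 to 326 CPM (median 205) after scramble siRNA. The medians were close, and the log2 fold change was -0.17 ± 0.35 (SE, edgeR adjusted p = 0.779).

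**Figure D3:**
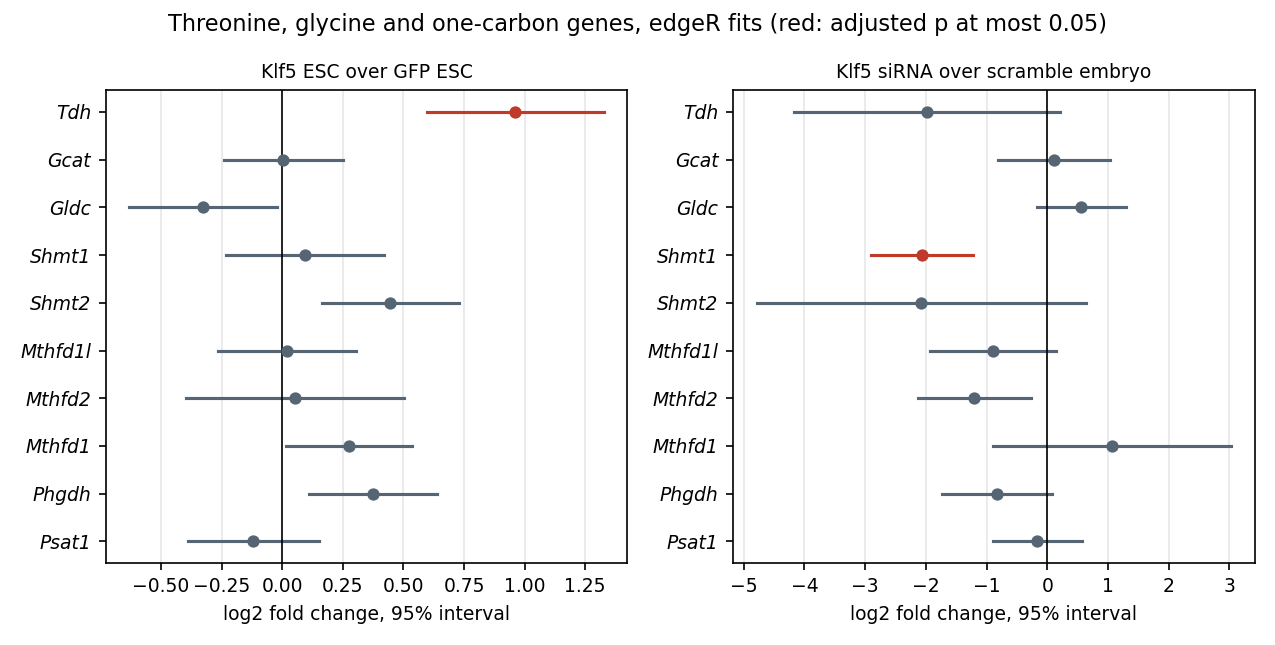
Fitted log2 fold change (point) and 95% interval (line) of each gene, for Klf5 over GFP ESCs on the left and Klf5 siRNA over scramble embryos on the right, on separate x scales. Tdh at 0.96 and Shmt1 at -2.06 are the red points, and the embryo interval of Shmt2 runs between -4.78 and 0.63.

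Effects in the 2 experiments were not tested against each other. Tdh had a log2 fold change of 0.96 with more Klf5 and -1.98 with less, and Shmt2 one of 0.45 and -2.08, but both embryo values missed the threshold. Shmt1, called in embryos at -2.06, had 0.09 in ESCs. Mthfd2, Mthfd1l and Phgdh were also above 0 in ESCs and below 0 in embryos. The sign was the same in both for Gcat (0.005 and 0.11), Mthfd1 (0.28 and 1.07) and Psat1 (-0.12 and -0.17). Gldc ran the other way, at -0.33 in ESCs and 0.56 in embryos.

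Taken per kilobase of the longest transcript, the genes at the top and at the bottom were the same in both ESC groups. Phgdh led with 259.6 ± 11.2 CPM per kb in Klf5 ESCs and 200.5 ± 3.44 in GFP ESCs (SD, n = 2), followed by Mthfd1 with 130.2 ± 6.01 in Klf5 ESCs and 108 ± 0.363 in GFP ESCs. Tdh stood in the third place in Klf5 ESCs at 92.9 ± 18.4 CPM per kb, beside Shmt2 at 92.0 ± 9.31, whose range it overlapped. With median transcript length Shmt2 stood above Tdh in Klf5 ESCs. In GFP ESCs Tdh was 47.7 ± 3.43 CPM per kb, level with Gcat at 47.7 ± 0.0760, and Shmt2 was 67.5 ± 3.97. Shmt1 and Mthfd1l were lowest in both groups, Shmt1 at 21.1 ± 3.14 in Klf5 ESCs and 19.8 ± 0.518 in GFP ESCs and Mthfd1l at 17.6 ± 0.442 in Klf5 ESCs and 17.4 ± 1.61 in GFP ESCs. Other neighbours that overlapped were Gldc with Mthfd2 and Mthfd2 with Psat1 in Klf5 ESCs, and Psat1 with Mthfd2 in GFP ESCs.

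In embryos the order by longest transcript was another one. Psat1 led with 70.7 ± 41.6 CPM per kb after Klf5 siRNA (SD, n = 6) and 79.4 ± 29.7 after scramble siRNA (SD, n = 10). Phgdh followed with 34.4 ± 26.4 after Klf5 siRNA and 61.1 ± 38.7 after scramble siRNA, then Gldc with 32.4 ± 21.5 after Klf5 siRNA and 22.0 ± 7.63 after scramble siRNA. Shmt1 was in the fifth place in scramble embryos, 19.0 ± 7.90, and in the seventh after Klf5 siRNA, 4.54 ± 2.69. Tdh was lowest after Klf5 siRNA at 1.07 ± 2.09 CPM per kb, and Mthfd1 after scramble siRNA at 2.96 ± 3.94. Every pair of neighbours overlapped in range in both embryo groups, except Phgdh and Gldc in scramble embryos. The order depends on the length used. With median transcript length Mthfd1l was lowest in both embryo groups, and Mthfd2 and Shmt1 stood above Gldc in scramble embryos.

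Set side by side as a description, since kits and tables differ, GFP ESCs had 36.3 times the mean level per kilobase of scramble embryos for Mthfd1, 13.0 times for Shmt2, 11.3 times for Tdh and 7.17 times for Gcat. Without scramble embryo 5 the ratio was 17.2 for Tdh and 52.4 for Mthfd1. The 2 GFP ESC libraries lay above all 10 scramble embryos for 7 of the 10 genes. How many of all genes do so was not counted, so this is not a result about the 10 genes. Mthfd2 and Shmt1 overlapped, and Psat1 was lower in GFP ESCs, with 38.5 CPM per kb, against 79.4 in scramble embryos.

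**Figure D4:**
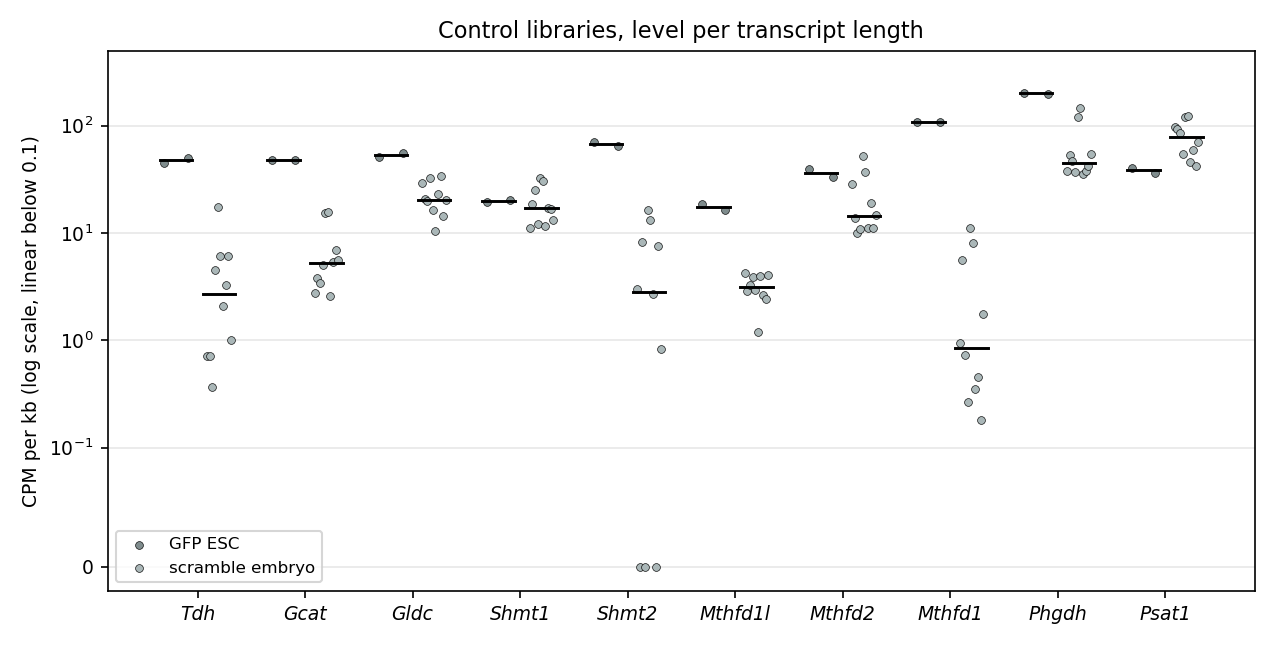
CPM per kilobase of the longest transcript (log y axis, linear below 0.1) in the control libraries, GFP ESCs left of scramble embryos for each gene, with medians as bars. Mthfd1, Shmt2 and Tdh show the widest gaps between the sources, Shmt1 and Mthfd2 overlap, and only Psat1 lies lower in GFP ESCs.

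The genes also differed in how much they varied among the 10 scramble embryos. The coefficient of variation of CPM was 1.33 for Mthfd1, 1.21 for Tdh and 1.14 for Shmt2, at the percentiles 98.8, 97.4 and 98.0 of genes within 2-fold of their mean level. It was 0.30 for Mthfd1l (percentile 14.6), 0.347 for Gldc, 0.374 for Psat1 and 0.417 for Shmt1 (percentile 63.2). Mthfd2, Phgdh and Gcat lay between, at 0.676, 0.633 and 0.732, with percentiles of 90.9, 90.7 and 90.0.

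Scramble embryos 5 and 6 were both above the other 8 for 8 of the 10 genes, all but Gldc and Mthfd1l. The share of all genes that separates these embryos was not taken, so the count says nothing particular to the 10 genes. Phgdh was 227 and 274 CPM in embryos 5 and 6, and 66.7 to 104 CPM in the other 8. Gcat was 36.6 and 37.0 CPM in embryos 5 and 6, and 6.07 to 16.4 CPM in the other 8. These embryos had the lowest mitochondrial shares of the scramble group, 4.34% and 5.48%, and trophectoderm marker sums of 7775 and 8504 CPM, against 2194 to 4072 CPM in the other 8. The part of these measures in the spread was not tested. Without both embryos the log2 fold change was -1.86 for Shmt1 (edgeR adjusted p = 0.00241), -0.79 for Mthfd2, -1.18 for Tdh and -0.39 for Phgdh (edgeR adjusted p = 0.139, 0.446 and 0.473 for these).

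35 further genes of serine, glycine, folate and methyl metabolism gave the surroundings of the 10. In ESCs 0 of 34 tested passed in either direction. 6 of the 34 had an unadjusted edgeR p under 0.05, beside 23.2% of all genes tested. DESeq2 called 2 higher, limma voom 0, and neither called any lower, where DESeq2 called 798 of all genes higher and edgeR 266. Their median log2 fold change was -0.01. The smallest p was that of Aldh1l1, a cytosolic formyltetrahydrofolate dehydrogenase, with 38.5 and 32.7 CPM in Klf5 ESCs and 17.7 and 23.2 CPM in GFP ESCs. Both Klf5 libraries lay higher, with a log2 fold change of 0.80 ± 0.17 (SE, edgeR adjusted p = 0.0596).

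In embryos 6 of 30 tested rose and 5 fell, beside 12.0% and 7.74% of all genes tested, and the median log2 fold change was -0.59. Mthfs, which returns formyl folate to the active pool, was 15.0 to 37.7 CPM (median 25.2) after Klf5 siRNA and 4.44 to 8.42 CPM (median 7.07) after scramble siRNA. These groups did not overlap, and the log2 fold change was 2.00 ± 0.26 (SE, edgeR adjusted p = 6.07e-05).

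Ggh, which trims the glutamate tail of folates, was 1.12 to 40.1 CPM (median 8.02) after Klf5 siRNA and 0.181 to 3.06 CPM (median 0.817) after scramble siRNA, a log2 fold change of 3.67 ± 0.71 (edgeR adjusted p = 0.00142). Fpgs, which adds that tail, was 1.68 to 7.26 CPM (median 4.31) after Klf5 siRNA and 5.18 to 26.9 CPM (median 12.3) after scramble siRNA, and its log2 fold change was -1.61 ± 0.42 (edgeR adjusted p = 0.0105). The groups overlapped for both genes. Without Klf5 siRNA embryo 5 the log2 fold change of Ggh was 2.90 (edgeR adjusted p = 0.00915), and with the mitochondrial percent as a covariate that of Fpgs was -1.17 and not called (edgeR adjusted p = 0.0965).

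Srr, which converts L-serine to D-serine, was 9.91 to 47.8 CPM (median 21.6) after Klf5 siRNA and 0.804 to 10.4 CPM (median 6.36) after scramble siRNA, with a log2 fold change of 2.14 ± 0.44 (edgeR adjusted p = 0.00222). Gcsh, the carrier protein of the glycine cleavage system, was 184 to 820.1 CPM (median 286) after Klf5 siRNA and 81.9 to 224 CPM (median 142) after scramble siRNA, with 1.35 ± 0.30 (edgeR adjusted p = 0.0037). Bhmt, which remethylates homocysteine from betaine, was 69.3 to 766 CPM (median 485) after Klf5 siRNA and 3.99 to 426 CPM (median 65.0) after scramble siRNA, with 2.14 ± 0.61 (edgeR adjusted p = 0.0179). The log2 fold change of Bhmt was 2.79 without scramble embryo 5, and its call ended without Klf5 siRNA embryos 2 and 4 (edgeR adjusted p = 0.0746) and with the mitochondrial covariate (edgeR adjusted p = 0.13), which also ended that of Gcsh (edgeR adjusted p = 0.0795). For Srr, Gcsh and Bhmt the 6 Klf5 siRNA embryos lay above the scramble median, and the ranges overlapped.

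Cbs, which joins serine to homocysteine, was 6.66 to 48.1 CPM (median 20.4) after Klf5 siRNA and 56.0 to 147 CPM (median 78.0) after scramble siRNA. Its groups did not overlap, with a log2 fold change of -1.84 ± 0.43 (edgeR adjusted p = 0.00565). Paics, a purine synthesis enzyme, was 87.3 to 189 CPM (median 131) after Klf5 siRNA and 178 to 466.2 CPM (median 220.3) after scramble siRNA, with -0.97 ± 0.26 (edgeR adjusted p = 0.0117). Aldh1l1 was 0 to 8.85 CPM (median 4.57) after Klf5 siRNA and 13.0 to 31.4 CPM (median 20.5) after scramble siRNA, without overlap, with -2.38 ± 0.76 (edgeR adjusted p = 0.0327). The call of Aldh1l1 ended with an offset for transcript length and in the 12 embryos whose replicate numbers both groups share.

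In embryos the log2 fold change of all genes ran with transcript length, with medians of 0.69, 0.08, -0.15, -0.22 and -0.32 over 5 equal bins of genes taken short to long. The 10 genes lay in the 3 middle bins, Shmt1 in the one with a median of -0.15. With an offset for length Shmt1 had -1.91 (edgeR adjusted p = 0.00155), while 3 of the further genes (Cbs, Fpgs and Paics), in place of 5, were called lower.

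**Figure D5:**
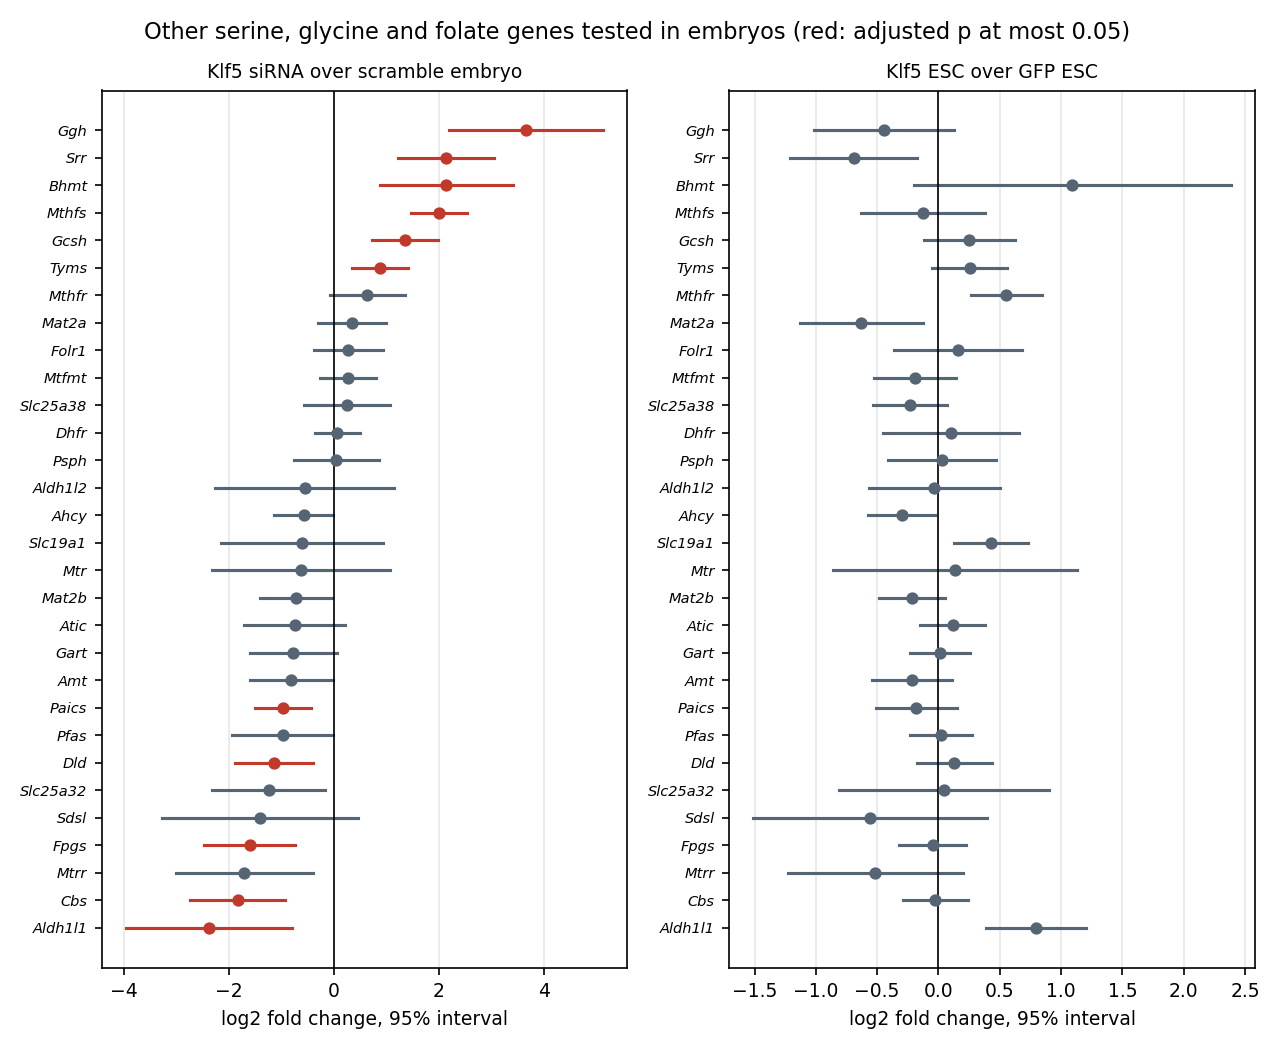
Fitted log2 fold change (point) and 95% interval (line) of the 30 further genes tested in embryos, for Klf5 siRNA over scramble embryos on the left and Klf5 over GFP ESCs on the right, on separate x scales. 6 red points lie right of 0 and 5 left of it in embryos, between 3.67 for Ggh and -2.38 for Aldh1l1, and no point is red in ESCs.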

How the data were processed

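RNA was read from 4 ESC libraries (polyadenylated RNA, TruSeq v2 reagents) and 16 single-embryo libraries (SMARTseq-V4), per the labels' protocols. The submitters' processing notes name kallisto 0.46 and mm10. The authors deposited estimated counts (expected counts) for Ensembl genes with no scaling between libraries. No source used here says how transcripts were summed to genes. 29910 of 30265 genes were matched to a symbol of GENCODE M21 (GRCm38, the assembly of mm10). Promoter windows came from RefSeq.

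Counts were rounded, which altered no library total by more than 0.000756%. Each experiment was fitted alone over all genes with edgeR 4.0.16 (filterByExpr with a lowest count of 10, TMM scaling, robust quasi-likelihood F test, Benjamini and Hochberg adjustment, threshold 0.05, no covariate). The fits were tested on simulated data. CPM use scaled library sizes, and ratios add 0.5 counts. A count of 0 was set against a floor of 3 counts, which covers only counting error, as amplified reads are not separate molecules.

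Alternatives were RLE scaling, no filter, DESeq2 1.42.0, limma 3.58.1 voom and an offset for transcript length (lowess span 0.3). Others left out each library, embryos 2 and 4 of the Klf5 siRNA group, or embryos 5 and 6 of the scramble group. Replicate numbers as a block, the mitochondrial percent as a covariate, and median transcript length for levels and ratios were also used. A crossed pairing of ESC replicates, and each scramble embryo left out of the ratio between ESC and embryo levels, were added after seeing the data. Replicate numbers were not taken to pair samples. Embryos of both groups are different animals. In ESCs the correlation of deviations was -0.108, but with 2 libraries per group this is a single value and cannot decide on a pairing. No replicate pair was alike within sampling noise (lowest chi-square per gene 21.1). The genes and lists were chosen with earlier results of these data known. Named were the 10 genes, Klf5, at most 8 further genes past the threshold with the smallest p (or the smallest p where none passed), and the 3 profiles nearest to Tdh; Aldh1l1, named by ESCs, is also given in embryos. Other markers and overlapping genes are named beside a value or call.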

Additional observations from a re-analysis of the deposited data

Results flagged for a closer look

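Libraries far from the rest of their group were sought in 28 groups of embryo values, as the ESC groups are too small for this. Chance would flag about 1 in 20 of them if values were normally distributed. That was not tested for CPM, so the chance rate here is not known. 4 were found, all of them high CPM values. Tdh was 9.99 CPM in Klf5 siRNA embryo 6, far above the other 5 embryos of that group, and 32.8 CPM in scramble embryo 5, far above the other 9. Mthfd2 was 44.3 CPM in Klf5 siRNA embryo 5, above the other 5. Mthfd1 was 84.8 CPM in the embryo labelled Klf5 siRNA 1, whose Klf5 level of 543 CPM lay within the scramble range.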

How the results depend on the processing

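Shmt1 stayed called lower in embryos under all 26 alternatives run, with log2 fold changes between -2.89 and -1.65 and adjusted p between 3.46e-06 and 0.0134. Tdh in ESCs was higher under all 11 alternatives run, between 0.75 and 1.15, but its call was lost with limma voom, without GFP replicate 1, without GFP replicate 2 and with the replicate block (0.95, edgeR adjusted p = 0.0558).

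Of the 10 genes in ESCs, DESeq2 called 3 higher, limma voom 0, the replicate block 0 and the crossed pairing 2, and 0 to 1 were called with a library left out. Of the 10 in embryos, 2 were called lower with no filter and with DESeq2, and 1 to 2 with an embryo left out. With the mitochondrial percent as a covariate 5 were called lower (Tdh, Gcat at -1.09, Shmt1, Mthfd2 and Phgdh) and 1 higher (Gldc at 1.20), beside 7.36% and 9.93% of all genes tested in that fit (912 lower, 1230 higher). That percent differs between the groups, so its part and that of the siRNA cannot be told apart.

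Over all genes in ESCs, numbers higher and lower were 527 and 343 with no filter, 798 and 637 with DESeq2, 65 and 50 with limma voom, 103 and 52 with the replicate block and 798 and 677 with the crossed pairing, against 266 and 178. Leaving out 1 library gave 1 to 563 higher and 0 to 435 lower, fewest without GFP replicate 1. In embryos DESeq2 gave 1518 lower, the replicate block 622 higher and 280 lower, and the same 12 embryos with no block 949 and 474, against 1489 and 958. Of the further metabolic genes, 2 were higher in ESCs with no filter, DESeq2 or the crossed pairing, and 0 to 1 with a library left out. In embryos 3 were lower with the length offset, the replicate block (1 higher) or the 12 embryos with no block, and 3 higher with the mitochondrial covariate. Among the named ones Ggh, Srr, Gcsh, Paics and Bhmt lost their call with the replicate block, Gcsh, Fpgs and Bhmt with the covariate, and Bhmt also without Klf5 siRNA embryos 2 and 4 and in the 12 embryos with no block. Aldh1l1 lost its embryo call at least with the length offset and in the 12 embryos with no block.

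Small differences turned their sign. In ESCs these were Gcat (-0.00 with RLE scaling, -0.03 with the length offset, -0.03 to 0.05 with a library left out), Shmt1 (-0.06 to 0.24), Mthfd2 (-0.22 to 0.29) and Mthfd1l (-0.01 with the length offset, -0.07 to 0.12). In embryos these were Gcat (-0.24 to 0.35 with an embryo left out, -0.08 in the 12 embryos with no block), Mthfd1 (-0.43 to 1.60, and -0.02 with the replicate block) and Psat1 (-0.40 to 0.01). The causes of these shifts were not tested.

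With median in place of longest transcript length, the median log2 ratios in ESCs became 2.58 with Klf5 and 2.22 with GFP for Shmt2 to Shmt1. They became -5.12 and -4.86 for Mthfd1l to Mthfd1, and 1.42 and 0.48 for Tdh to Gcat. A change of length shifts every library by the same constant, so the gap between groups could not change and was not checked by this. Klf5 in embryos was negative under all 26 alternatives (-1.56 to -0.71) and lost its call under 9, among them those without Klf5 siRNA embryo 2, 3, 4 or 5. The crossed pairing was set after seeing the data. With 2 ESC libraries per group, and low estimated counts in several embryos, differences smaller than the intervals given were not detectable. Those low counts were at or near 0 for Shmt2 and Tdh and near 15 for Mthfd1.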
